A study of Mus musculus with 18 samples.

Results

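A set of 10 immune checkpoint and regulatory T cell genes was followed across 18 K7M2 tumors. The set, chosen by name, comprised 10 of the 20878 genes measured: the inhibitory receptors *Pdcd1* (PD-1), *Ctla4*, *Lag3*, *Havcr2* (TIM-3) and *Tigit*, the PD-1 ligands *Cd274* (PD-L1) and *Pdcd1lg2* (PD-L2), the costimulatory receptors *Icos* and *Tnfrsf4* (OX40), and the transcription factor *Foxp3*. All 10 were present in the matrix, and they and all gene lists were chosen with earlier results of these data known. K7M2 is a poorly differentiated mouse osteosarcoma cell line that originates from Balb/c mice. The grafted cells had been transduced by lentivirus either with a control shRNA (ATRXCT) or with an shRNA directed at *Atrx* (ATRXKD), and were grown in female mice of 6 to 8 weeks of age. Hosts were immunocompetent Balb/c mice (4 ATRXCT and 4 ATRXKD tumors) or NSG mice (5 and 5), which are of NOD background, carry the scid mutation of *Prkdc* and a null allele of *Il2rg*, and lack mature T, B, and NK cells while keeping myeloid cells. Each tumor came from its own mouse. Hosts differed both in strain background and in immune cells, and these cannot be told apart here; mice had also been assigned to the cell groups by cage, and the cage of each tumor was not in the labels.

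T cells that are activated by antigen and CD28 display receptors that restrain them. PD-1 is engaged by PD-L1 or PD-L2, CTLA-4 competes with CD28 for CD80 and CD86, LAG-3 binds MHC class II, TIGIT competes with CD226 for PVR and nectins, and TIM-3 has galectin-9 and CEACAM1 among its ligands. ICOS and OX40 instead deliver costimulatory signals when bound by ICOSL and OX40L. *Foxp3* specifies regulatory T cells, in which *Ctla4*, *Icos*, *Tigit* and *Tnfrsf4* are typically abundant. PD-L1 is carried by tumor cells and myeloid cells and is induced by interferon gamma, whereas TIM-3 is also a receptor of macrophages and dendritic cells.

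Several of the genes are neighbours in the genome (coordinates of build mm10). *Ctla4* (chromosome 1, 60909025 to 60915832) and *Icos* (chromosome 1, 60977914 to 61000320) lie 62081 bases apart on the plus strand, and *Cd274* (chromosome 19, 29367438 to 29388095) and *Pdcd1lg2* (chromosome 19, 29410919 to 29472927) lie 22823 bases apart on the same strand. *Pdcd1* lies on chromosome 1 (94038305 to 94052553), *Lag3* on chromosome 6 (124904359 to 124911705) and *Tigit* on chromosome 16 (43648861 to 43664184), all 3 on the minus strand. The plus strand holds *Havcr2* on chromosome 11 (46454931 to 46481255), *Tnfrsf4* on chromosome 4 (156013695 to 156016589) and *Foxp3* on chromosome X (7579676 to 7595243). RefSeq promoter sequences (GRCm38.p6, which has the coordinates of mm10) were matched for 8 of the 10 genes, not for *Icos* and *Lag3*. The 250 bases before the transcription start are shown 5′ to 3′ for the neighbouring PD-1 ligands, for *Tigit*, which was measured in every NSG tumor, and for the second of 2 listed starts of *Foxp3*, which was listed at 0 there. Capitals mark any match, on either strand, to the GAS element bound by STAT factors (TTCNNNGAA), the interferon element ISRE (GAAA, any 2 bases, GAAA), a RUNX site (TGTGGT), an NFAT core (GGAAAA) or an ETS site (CCGGAA).

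Cd274, chr19:29367188-29367437, plus strand: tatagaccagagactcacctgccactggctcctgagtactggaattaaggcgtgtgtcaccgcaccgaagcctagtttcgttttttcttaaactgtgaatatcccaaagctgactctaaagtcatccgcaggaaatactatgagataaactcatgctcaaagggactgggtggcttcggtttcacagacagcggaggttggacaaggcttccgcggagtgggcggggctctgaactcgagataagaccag
Pdcd1lg2, chr19:29410669-29410918, plus strand: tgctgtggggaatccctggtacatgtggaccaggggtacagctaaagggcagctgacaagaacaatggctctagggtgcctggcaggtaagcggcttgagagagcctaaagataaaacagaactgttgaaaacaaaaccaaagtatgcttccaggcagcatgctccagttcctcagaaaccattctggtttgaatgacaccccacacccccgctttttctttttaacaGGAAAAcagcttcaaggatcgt
Tigit, chr16:43664185-43664434, minus strand: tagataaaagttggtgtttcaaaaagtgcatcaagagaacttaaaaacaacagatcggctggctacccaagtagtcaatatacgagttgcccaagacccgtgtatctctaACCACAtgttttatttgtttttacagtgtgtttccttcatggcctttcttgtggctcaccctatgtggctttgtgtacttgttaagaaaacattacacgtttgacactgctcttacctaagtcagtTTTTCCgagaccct
Foxp3, chrX:7580233-7580482, plus strand: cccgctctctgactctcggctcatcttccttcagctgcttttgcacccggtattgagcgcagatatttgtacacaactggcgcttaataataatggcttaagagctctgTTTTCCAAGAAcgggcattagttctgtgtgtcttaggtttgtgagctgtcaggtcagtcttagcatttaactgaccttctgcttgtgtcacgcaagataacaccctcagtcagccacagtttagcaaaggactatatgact

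The *Cd274* window held none of these letters, the *Pdcd1lg2* window 1 NFAT core, and the *Tigit* window 1 RUNX and 1 NFAT match. In the *Foxp3* window a match to the GAS pattern, which as a pattern is the same on both strands, overlapped an NFAT core. Among 32851 RefSeq promoter windows of the same length, 7.02% held the GAS letters, 2.98% ISRE, 14% RUNX, 20.4% NFAT and 12% ETS, so these matches are common and describe the sequence alone.

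Libraries held an estimated 14950000 to 25450000 fragments, and FPKM (fragments per kilobase, corrected for library size) is the level per length used throughout. At these depths, 3 fragments, the limit that a count of 0 allows, corresponded to between 0.0321 FPKM (*Foxp3*) and 0.25 FPKM (*Tigit*) in a library. Among 15 T cell genes, all had a mean of at least 0.1 FPKM in Balb/c tumors and 3 did in NSG tumors, *Cd4* among them. The mean log2 (FPKM + 1) of this list was 1.65 to 2.29 per Balb/c tumor and 0.10 to 0.30 per NSG tumor. Of 9 osteoblast genes, 4 had a mean of 0.1 FPKM or more in Balb/c tumors and 6 in NSG tumors. Long transcripts were relatively high in 4 Balb/c libraries (ATRXCT 43 and 45, ATRXKD 56 and 60) and 2 NSG libraries (ATRXCT 3 and ATRXKD 27). These had 0.15 to 0.29 more log2 units per doubling of transcript length, against -0.17 to 0.00 in the others. For members that move with this slope in Balb/c tumors, ratios between the classes are given below as deposited and with the trend removed. In whole tumors, fewer cells of a type and less RNA per cell cannot be told apart.

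**Figure D1:**
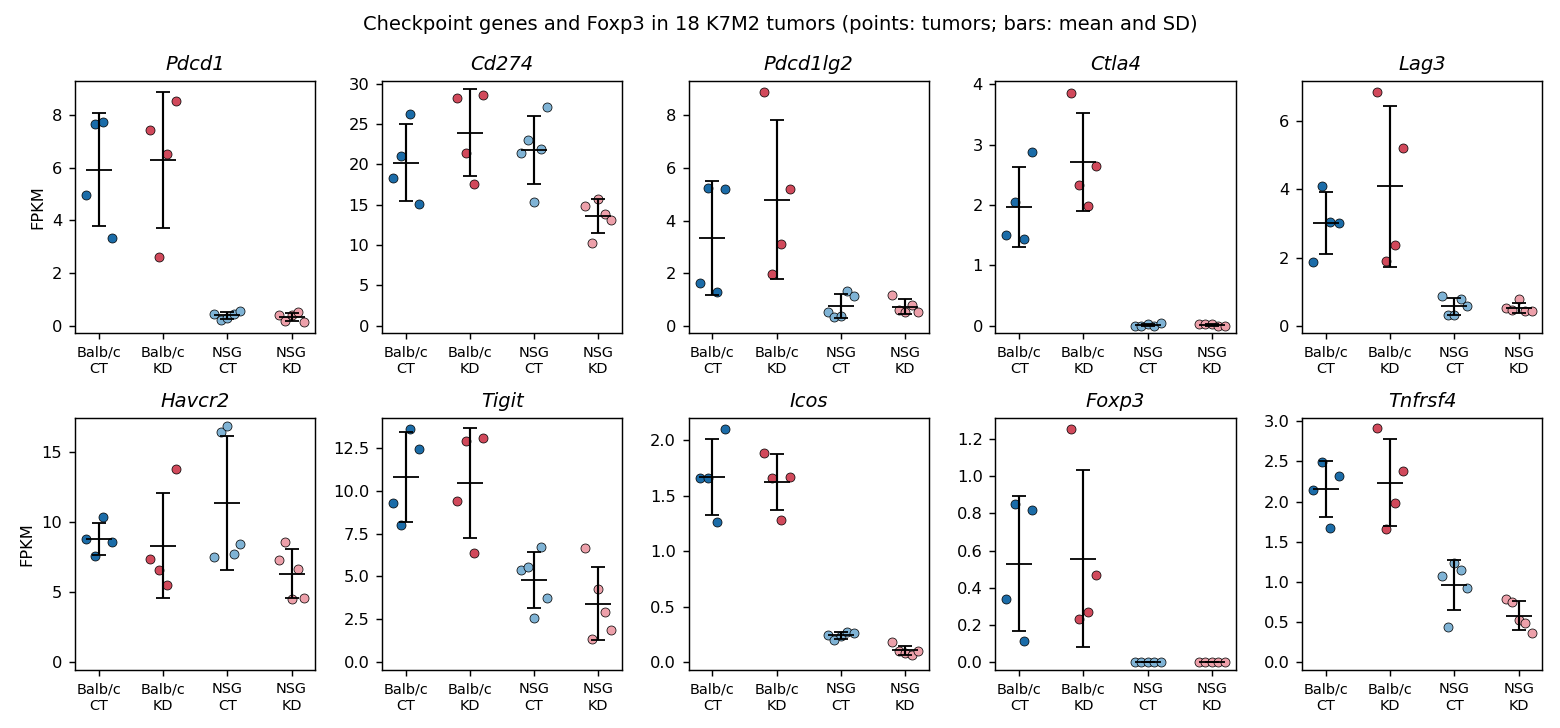
FPKM of the 10 genes in each of 18 tumors, by host and shRNA (CT, ATRXCT; KD, ATRXKD); points are tumors and bars give the mean and SD. *Ctla4* and *Foxp3* lie at or near 0 in the 10 NSG tumors, whereas *Cd274* and *Havcr2* have overlapping ranges in the hosts.

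*Cd274* was the most abundant of the 10 genes in all 4 groups, and *Foxp3* the least. In Balb/c tumors the order of mean FPKM was *Cd274* (22.1 ± 5.13, SD, n = 8), *Tigit* (10.6), *Havcr2* (8.57), *Pdcd1* (6.10), *Pdcd1lg2* (4.06), *Lag3* (3.55), *Ctla4* (2.34), *Tnfrsf4* (2.2), *Icos* (1.65) and *Foxp3* (0.543). *Cd274* exceeded *Tigit* in 8 of 8 tumors with no overlap of their ranges, and *Icos* exceeded *Foxp3* likewise, whereas the ranges of every other pair of neighbours in this order overlapped. In NSG tumors *Cd274* (17.7 ± 5.36, SD, n = 10), *Havcr2* (8.85) and *Tigit* (4.10) remained at several FPKM. *Tnfrsf4*, *Pdcd1lg2*, *Lag3*, *Pdcd1* and *Icos* followed between 0.772 and 0.176 FPKM, *Ctla4* was at 0.0156, and *Foxp3* was listed at 0. The step from *Tigit* down to *Tnfrsf4* held in 10 of 10 NSG tumors with no overlap.

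The first question was whether knock-down of *Atrx* altered these genes in immunocompetent hosts. *Atrx* itself was measured at 13.4, 26.0, 10.3 and 20.7 FPKM in Balb/c ATRXCT tumors 41, 43, 44 and 45, and at 21.5, 7.88, 9.11 and 17.3 in ATRXKD tumors 56, 58, 59 and 60. These groups overlapped, with a difference of -0.34 ± 0.36 (SE) in log2 (FPKM + 1) (adjusted p = 0.999, limma), and the highest values were those of the 4 libraries with a high slope. In NSG hosts it was measured at 16.2, 11.6, 24.4, 15.1 and 20.5 FPKM in ATRXCT tumors and at 8.42, 16.4, 8.59, 8.88 and 8.59 in ATRXKD tumors, a difference of -0.74 ± 0.22 (adjusted p = 0.0610; 0.0400 without ATRXCT 2 and 0.0268 without ATRXKD 27). With the length class of the library as a term, the adjusted p was 0.00837 in NSG and 0.474 in Balb/c tumors.

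None of the 10 genes was called between ATRXKD and ATRXCT tumors in Balb/c hosts, where a call required an adjusted p under 0.05 over all 14701 genes tested and a fold change of at least 2. Among all genes 0.0068% were called lower and 0% higher, 1 gene in total, and 2.42% were lower and 1.72% higher at an unadjusted p under 0.05, a level that none of the 10 reached. No gene of the set separated the groups either, against 1.93% of all genes that lay entirely lower and 1.25% entirely higher. The 10 differences ran from -0.14 (*Havcr2*) to 0.42 (*Pdcd1lg2*) with a median of 0.03, beside 0.00 over all genes, and every adjusted p was 0.999 (limma).

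For *Pdcd1*, the receptor targeted by anti-PD-1 antibodies, levels were 4.97, 7.66, 7.73 and 3.33 FPKM in Balb/c ATRXCT tumors and 7.45, 2.6, 6.54 and 8.53 in ATRXKD tumors. Both groups spanned nearly the same range, and the difference was 0.04 ± 0.34 (SE), with a 95% interval that reached from a fold of 0.605 to one of 1.75. Its ligand *Cd274* measured 18.4, 21.1, 26.3 and 15.0 FPKM against 28.3, 21.4, 17.5 and 28.6. The 2 highest tumors were ATRXKD and the lowest was ATRXCT, but the groups overlapped (0.23 ± 0.21, fold interval 0.850 to 1.63). The second ligand *Pdcd1lg2*, at 1.63, 5.23, 1.29 and 5.21 FPKM against 8.88, 1.98, 3.11 and 5.18, was split in both groups between high and low tumors. Its interval, 0.666-fold to 2.69-fold, was the widest of the set.

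Among the other inhibitory receptors, *Ctla4* was at 1.51, 2.05, 1.44 and 2.87 FPKM in ATRXCT and at 3.86, 2.33, 1.99 and 2.65 in ATRXKD tumors. Here 3 of 4 ATRXKD values exceeded 3 of 4 ATRXCT values, and the interval of the fold ran from 0.915 to 1.71. *Lag3* values of 1.87, 4.11, 3.04 and 3.02 FPKM stood against 6.86, 1.90, 2.36 and 5.23, so that the ATRXKD group held the highest pair and also values close to the lowest control (0.25 ± 0.33). *Havcr2* measured 8.78, 7.56, 10.3 and 8.59 FPKM in controls and 7.40, 6.58, 5.52 and 13.8 after knock-down. Tumor ATRXKD 60 was the highest and the other 3 lay under every control (-0.14 ± 0.24). *Tigit* was between 7.97 and 13.6 FPKM in ATRXCT and between 6.37 and 13.1 in ATRXKD tumors (-0.07 ± 0.25).

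The costimulatory receptors were the tightest. *Icos* was at 1.27 to 2.10 FPKM in ATRXCT and 1.29 to 1.88 in ATRXKD tumors, with a fold interval of 0.803 to 1.21. *Tnfrsf4* ranged from 1.67 to 2.49 and from 1.66 to 2.92 FPKM (fold interval 0.802 to 1.30). *Foxp3*, with 0.342, 0.851, 0.113 and 0.816 FPKM in ATRXCT and 1.25, 0.230, 0.272 and 0.468 in ATRXKD tumors, spread more within each group than between them (0.01 ± 0.23). All these fold intervals are on the scale of FPKM plus 1, which understates changes of low genes such as *Foxp3*.

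T cell genes as a list were at similar levels in both groups. The mean of the 15 T cell genes was 1.71, 2.29, 1.89 and 1.78 in ATRXCT tumors and 2.17, 1.65, 1.82 and 2.2 in ATRXKD tumors. It differed by 0.044 between the groups (two-sided exact permutation test over 70 arrangements, p = 0.914; the smallest possible p is 0.0286), and the sign of this difference turned without ATRXCT 41 or 45 or ATRXKD 56 or 60 (lowest value -0.036). Divided by the geometric mean of the T cell genes (each with 0.1 FPKM added), *Pdcd1* was at 2.2 ± 0.684 (SD, n = 4) in ATRXCT and 2.17 ± 0.614 in ATRXKD tumors. *Icos* was at 0.675 ± 0.212 and 0.624 ± 0.153, and *Tnfrsf4* at 0.846 ± 0.187 and 0.820 ± 0.080 on this scale. Further apart were *Pdcd1lg2* (1.23 ± 0.736 and 1.61 ± 0.703), *Ctla4* (0.780 ± 0.308 and 0.990 ± 0.202), *Lag3* (1.13 ± 0.179 and 1.38 ± 0.500) and *Havcr2* (3.42 ± 0.972 and 2.91 ± 0.828). The ranges of the groups overlapped for each of the 10 ratios. The mast cell genes did separate the groups: their list mean was 3.88 to 4.98 in ATRXCT and 2.37 to 3.4 in ATRXKD tumors. Of these genes, 7 of 8 lay entirely lower in ATRXKD tumors, against 1.93% of all genes. None of the 8 was called, where 0.0068% of all genes were called lower.

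**Figure D2:**
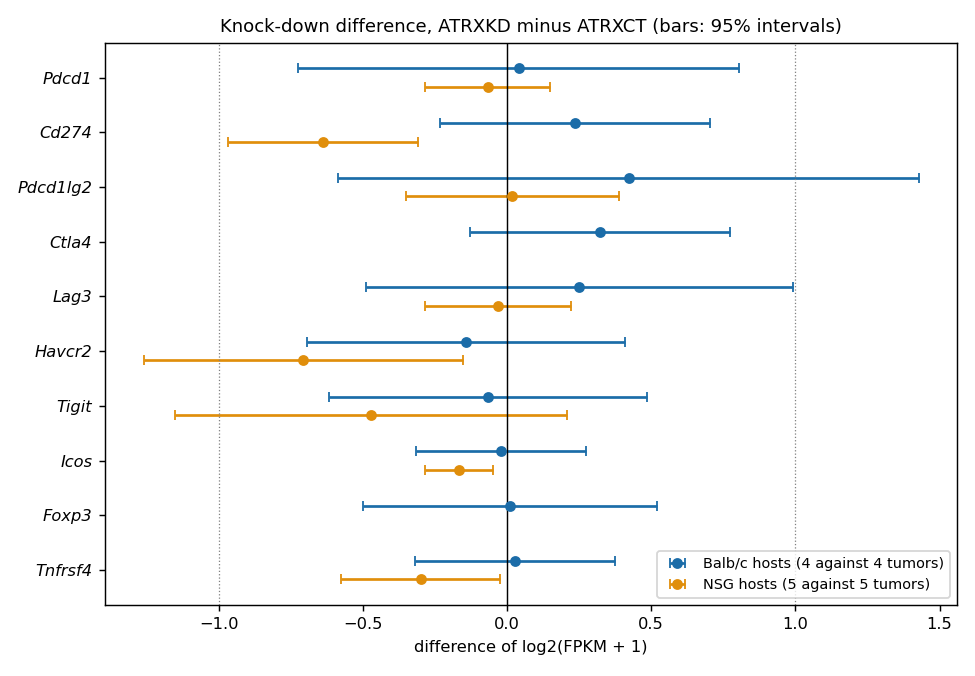
Difference of log2 (FPKM + 1) between ATRXKD and ATRXCT tumors for the 10 genes in each host, with 95% intervals from limma; dotted lines mark a fold of 2. All intervals in Balb/c hosts include 0, and in NSG hosts those of *Cd274*, *Havcr2*, *Icos* and *Tnfrsf4* lie below it (*Ctla4* and *Foxp3* were too low to be tested there).

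Genes around the checkpoint receptors were not called in Balb/c hosts either: 0 of 15 tested ligands and partners, 0 of 24 other checkpoint and costimulatory genes, 0 of 9 regulatory T cell genes, 0 of 12 T cell activation factors and 0 of 13 genes of the interferon gamma pathway. Their median differences were 0.03, 0.08, 0.05, 0.04 and 0.13. The ligand furthest from 0 was *Nectin2*, a nectin bound by TIGIT and CD226, with 5.09, 5.15, 3.85 and 3.78 FPKM in ATRXCT tumors and 8.64, 8.81, 6.62 and 5.63 in ATRXKD tumors. Every ATRXKD tumor lay above every control (0.61 ± 0.18, adjusted p = 0.718, limma), as for 1.25% of all genes. *Rgmb*, a PD-L2 binding partner, differed by 0.29 (adjusted p = 0.999), *Icosl*, the ligand of ICOS, by -0.20, and *Tnfsf4*, the ligand of OX40, by -0.18. Among T cell chemokines induced by interferon gamma, *Cxcl9* was at 7.38, 13.5, 12.4 and 13.4 FPKM against 47.2, 11.9, 11.6 and 22.4 (0.74 ± 0.41, adjusted p = 0.999), with the 2 highest values in tumors ATRXKD 56 and 60, and *Cxcl11* differed by 0.83 ± 0.35. *Tnfrsf9* (4-1BB) differed by 0.50, and *Entpd1*, the ectonucleotidase CD39, by -0.49.

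In NSG hosts, 8 of the 10 genes passed the filter of a mean of 0.1 FPKM, and *Ctla4* and *Foxp3* did not. None of the 8 was called, where 0.293% of 14654 genes were called lower and 0.171% higher. At an unadjusted p under 0.05, 4 of the 8 were lower and 0 higher, against 12.5% and 13.8% of all genes. *Cd274* passed the adjusted p alone, as did 3.05% of all genes that were lower and 3.73% that were higher. It measured 21.4, 23.0, 15.4, 22.0 and 27.1 FPKM in ATRXCT tumors 1 to 5 and 14.8, 10.2, 15.7, 13.8 and 13.2 in ATRXKD tumors 26 to 30. All ATRXKD tumors lay below 4 of the 5 controls, and ATRXCT 3 fell among them. The difference was -0.64 ± 0.15 (SE; adjusted p = 0.0328, limma), a fold of 0.511 to 0.807. Leaving out any of 8 of the 10 tumors took the adjusted p above 0.05 (0.0518 to 0.0911), with differences of -0.69 to -0.55. Those 8 were ATRXCT 1, 2, 4 and 5 and ATRXKD 27 to 30.

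*Havcr2* measured 7.54, 16.4, 16.8, 7.69 and 8.46 FPKM in NSG ATRXCT tumors and 7.29, 8.57, 4.54, 6.68 and 4.56 in ATRXKD tumors. Controls 2 and 3 stood far above the other 8 tumors, and the remaining 3 controls overlapped the knock-down group at its upper end (-0.71 ± 0.25, adjusted p = 0.104, limma). *Icos*, at 0.248, 0.198, 0.237, 0.273 and 0.261 FPKM against 0.182, 0.104, 0.0826, 0.0697 and 0.102, was lower in all 5 ATRXKD tumors without overlap, as for 3.14% of all genes (4.36% lay entirely higher; -0.17 ± 0.05, adjusted p = 0.0801), at levels under 0.3 FPKM. *Tnfrsf4* differed by -0.30 ± 0.13 (adjusted p = 0.156; 0.0389 without ATRXCT 2) and *Tigit* by -0.47 ± 0.31 (adjusted p = 0.356). For *Pdcd1*, *Pdcd1lg2* and *Lag3* the differences were -0.07, 0.02 and -0.03. Under library weights the adjusted p was 0.0212 for *Havcr2*, and with the length class as a term 0.0427. Library weights also gave 0.00906 for *Icos* and 0.00567 for *Tnfrsf4*, and without a filter *Icos* had 0.0192, all short of a fold of 2.

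Of 10 macrophage genes, 9 had negative differences in these NSG tumors, and *Csf1r*, the receptor of macrophage colony-stimulating factor, had one of 0.37. The mean of the list was 6.75, 7.14, 7.41, 6.84 and 6.65 in ATRXCT and 6.77, 6.47, 6.34, 6.61 and 6.31 in ATRXKD tumors. It was highest in controls 2 and 3, as *Havcr2* was, and the groups overlapped. The median difference of these genes was -0.55, with 0 of 10 called, 2 past the adjusted p and 9 at an unadjusted p under 0.05, and their part in the *Cd274* and *Havcr2* differences was not tested. None of the 15 tested ligands and partners was called. *Cd86*, the CD28 and CTLA-4 ligand of antigen-presenting cells, measured 19.6, 14.3, 12.1, 19.5 and 15.1 FPKM against 14.2, 6.81, 6.90, 9.24 and 6.50 (-0.85 ± 0.20, adjusted p = 0.0348, limma). *Icosl* differed by -0.49 (adjusted p = 0.0726), whereas *Rgmb* (0.41, adjusted p = 0.0494) and *Nectin2* (0.43, adjusted p = 0.0736) were on the positive side, as in Balb/c hosts. Without ATRXCT 1, 4 or 5 or ATRXKD 27 to 30 the adjusted p of *Cd86* exceeded 0.05 (up to 0.101), and that of *Rgmb* did without any tumor other than ATRXCT 3 (up to 0.119). Without ATRXCT 3 that of *Nectin2* was 0.0221. Of 18 tested genes in the list of other checkpoint genes, 0 were called and 5 passed the adjusted p, all lower in ATRXKD tumors, where 3.05% of all genes did so. They included *Lair1*, an inhibitory collagen receptor of leukocytes (-0.74, adjusted p = 0.0148; just above 0.05 without ATRXKD 30), while *Vsig4*, a macrophage complement receptor, differed by -0.98 (adjusted p = 0.190).

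A direct comparison of the knock-down differences between hosts called 0 of 14803 genes (0% in each direction; 5.86% lower and 4.45% higher at an unadjusted p under 0.05). Of the 10 genes, 1 reached an unadjusted p under 0.05. This was *Cd274*, whose knock-down difference was 0.87 ± 0.26 larger in Balb/c than in NSG hosts (adjusted p = 0.286, limma; 0.0196 under library weights, with a value of 0.77). *Havcr2* followed at 0.57 ± 0.38 (adjusted p = 0.650). The smallest among genes measured in both hosts was *Pdcd1* at 0.11. *Foxp3* and *Ctla4* entered this fit only through the Balb/c tumors. *Foxp3* was listed at 0 in every NSG tumor, so its value of 0.01 is its Balb/c difference and compares no hosts.

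The hosts themselves differed far more. In ATRXCT tumors, 5 of the 10 genes were called higher in Balb/c than in NSG mice, where 0.883% of 14828 genes were: *Pdcd1*, *Ctla4*, *Lag3*, *Tigit* and *Icos*. In ATRXKD tumors, 7 were, where 1.12% of 14669 genes were: the same 5 with *Pdcd1lg2* and *Tnfrsf4*. None was called lower, against 0.546% and 0.266% of all genes. *Ctla4*, called in both, and *Foxp3*, called in neither, passed the filter only through the Balb/c tumors. The 10 differences had a median of 1.07 in ATRXCT and 1.35 in ATRXKD tumors, beside 0.01 and -0.02 over all genes (1.15 and 1.53 with *Ctla4* and *Foxp3* at their lower bounds below). Without overlap, 7 and 8 of the 10 were higher in Balb/c hosts, against 4.72% and 5.08% of all genes, and none was lower, against 2.85% and 3.05%. At an unadjusted p under 0.05, 8 and 9 were higher, against 11.5% and 9.93%, and none was lower, against 7.87% and 6.50%.

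**Figure D3:**
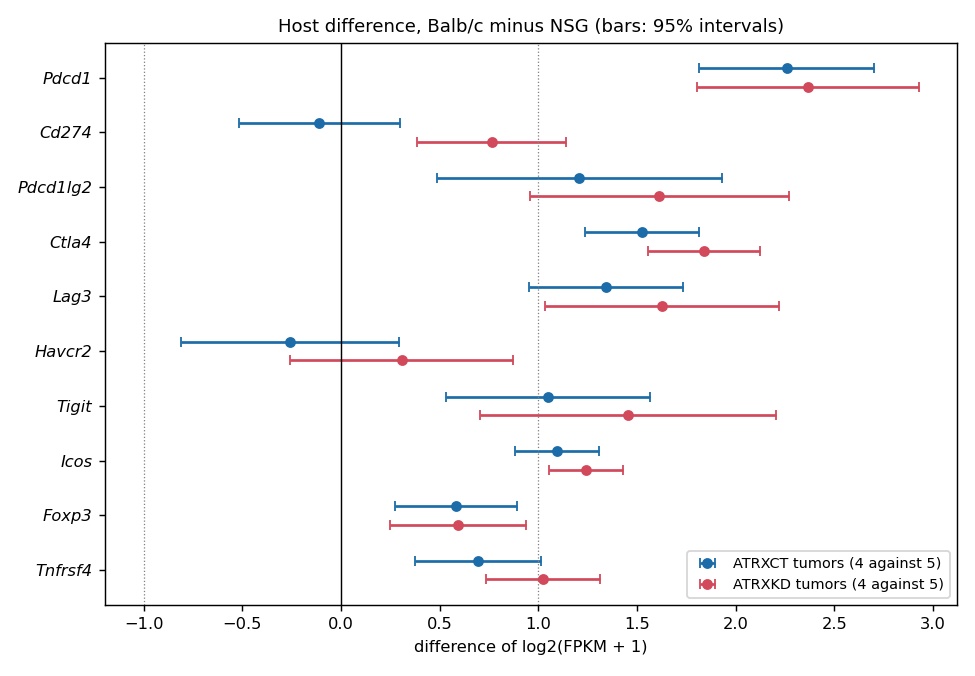
Difference of log2 (FPKM + 1) between Balb/c and NSG hosts for the 10 genes, in ATRXCT and in ATRXKD tumors, with 95% intervals from limma; dotted lines mark a fold of 2. *Pdcd1* shows the largest difference on this scale with either shRNA, and the intervals of *Havcr2* include 0 with both.

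*Pdcd1* had the largest difference in log2 (FPKM + 1) as fitted, although the lower bounds of the ratio of *Ctla4* exceeded the ratios of *Pdcd1*. NSG tumors measured 0.457, 0.225, 0.302, 0.441 and 0.547 FPKM with ATRXCT and 0.419, 0.176, 0.397, 0.528 and 0.151 with ATRXKD cells, all above the limit of 3 fragments, and mean FPKM was 15.0 and 18.8 times higher in Balb/c tumors. On the log2 scale the differences were 2.26 ± 0.20 (adjusted p = 7.55e-05, limma) and 2.37 ± 0.25 (adjusted p = 0.000388). *Ctla4* was at most 0.0379 FPKM in the 10 NSG tumors, under the limit of 3 fragments in each. Balb/c means were therefore at least 17.4-fold higher in ATRXCT and at least 32.7-fold higher in ATRXKD tumors, taking the highest limit of any NSG library in the group. *Lag3* lay between 0.309 and 0.865 FPKM in NSG tumors and was 5.32 and 7.87 times higher in Balb/c tumors.

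*Icos* and *Tnfrsf4* followed the same direction. *Icos* means were 6.86 times higher with ATRXCT and 15.0 times with ATRXKD cells. *Tnfrsf4*, between 0.371 and 1.23 FPKM in NSG tumors, was 2.24 and 3.84 times higher. Its ATRXCT difference of 0.70 passed the adjusted p (0.0268) and not the fold, and its adjusted p rose to at most 0.0964 without Balb/c tumors 41, 43 or 45 or NSG tumors 1 or 5, and was 0.0552 with a filter at 1 FPKM. The difference of 1.02 in ATRXKD tumors passed both (adjusted p = 0.00137, limma), but was under a fold of 2 without Balb/c tumors 56 or 60 or NSG tumor 30 (down to 0.93). *Pdcd1lg2*, from 0.337 to 1.31 FPKM in NSG tumors, was 4.54 and 6.58 times higher in Balb/c tumors. In libraries without a high slope, its mean was 2.00 FPKM in Balb/c (n = 4) and 0.793 in NSG tumors (n = 8), both shRNAs together. With a high slope, its mean was 6.12 FPKM in Balb/c (n = 4) and 0.486 in NSG tumors (n = 2). Its difference of 1.21 ± 0.33 in ATRXCT tumors had an adjusted p of 0.0817, with Balb/c ATRXCT tumor 44 (1.29 FPKM) below NSG ATRXCT tumor 4 (1.31 FPKM), and one of 0.0253 without tumor 44 and 0.0414 in a fit of all 4 groups, and that of 1.61 ± 0.30 in ATRXKD tumors was called (adjusted p = 0.0128, limma).

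*Foxp3* was listed at 0 in all 10 NSG tumors and at 0.113 to 1.25 FPKM in all 8 Balb/c tumors, so the hosts did not overlap. Balb/c means exceeded the limit of 3 fragments at least 9.71-fold (ATRXCT) and at least 13.9-fold (ATRXKD). By library, the Balb/c mean was 0.846 FPKM with a high slope and 0.239 FPKM without (n = 4 each). *Foxp3* passed the filter on low values only through the Balb/c tumors, where it was high, so its fitted differences of 0.58 and 0.59 are a description. Their adjusted p depended on the setting, with 0.0528 and 0.0731 (limma) as fitted, 0.00921 and 0.00470 with a pseudocount of 0.1, and 0.00575 without Balb/c ATRXCT 44 and 0.0177 without Balb/c ATRXKD 56. Other regulatory T cell genes were not called in either comparison, with 3 of 9 tested passing the adjusted p in each, against 2.09% and 2.8% of all genes higher in Balb/c hosts, namely *Ccr8*, *Il2ra* and *Izumo1r*. *Il2ra*, the high-affinity interleukin-2 receptor chain, was at 0.571 to 1.36 FPKM in Balb/c and 0.067 to 0.313 in NSG tumors. *Ccr8*, a chemokine receptor of tumor regulatory T cells, was listed at 0 in all 10 NSG tumors and reached 0.867 FPKM in Balb/c tumors. Like *Foxp3*, it passed the filter only through the Balb/c tumors, so its place among the 3 is a description.

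After *Havcr2*, *Tigit* was the receptor of the set with the highest level in NSG tumors. It measured 5.40, 5.54, 2.61, 6.69 and 3.74 FPKM in NSG ATRXCT and 6.66, 1.35, 4.28, 2.90 and 1.89 in NSG ATRXKD tumors, each above the limit of 3 fragments (0.147 to 0.25 FPKM). In the same tumors *Cd3e* was at most 0.112 and *Cd3g* at most 0.0482 FPKM, and the NK receptor gene *Klrc1* was listed at 0 in all 10. Other genes of the T cell and NK cell lists were measured there, *Cd4* at 1.00 to 5.62 FPKM and *Klra8* at 5.03 to 25.8 FPKM. Which cells carried *Tigit* in NSG tumors was not tested. Mean *Tigit* was 2.25 (ATRXCT) and 3.05 (ATRXKD) times higher in Balb/c tumors, with differences of 1.05 ± 0.23 (adjusted p = 0.0382) and 1.45 ± 0.34 (adjusted p = 0.0439, limma), and in ATRXKD tumors the hosts overlapped. The ATRXCT call was lost without any of the 4 Balb/c tumors or NSG tumors 1, 2 or 5 (adjusted p up to 0.108) and fell short of the fold without NSG tumor 3 (0.89), and the ATRXKD call without Balb/c tumors 56, 58 or 60 or NSG tumors 27, 28, 29 or 30 (up to 0.126). With all tumors kept, both were lost without a filter on low values (0.0707 and 0.0805), and the ATRXCT call also in a fit of all 4 groups (0.0556) and, by its fold, under library weights (0.83). Of the 845 stretches of 75 nt, the read length, in its longest annotated transcript, 2 also occurred in a transcript of another gene. Of the other members, *Foxp3* shared 11.0% of such stretches with overlapping genes including *Ccdc22*, *Cd274* shared 9.22% with various genes, and the remaining 7 shared none.

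*Cd274* and *Havcr2* were the members with no host difference past the adjusted p in ATRXCT tumors besides *Pdcd1lg2* and *Foxp3*. *Cd274* means were 20.2 FPKM in Balb/c and 21.8 in NSG ATRXCT tumors (-0.11 ± 0.18, fold interval 0.698 to 1.23), and 23.9 against 13.6 in ATRXKD tumors, where the hosts did not overlap (0.76 ± 0.17, adjusted p = 0.0366, limma). Leaving out Balb/c tumors 56, 58 or 60 or NSG tumors 27, 28, 29 or 30 took that adjusted p above 0.05, up to 0.105, and it was 0.0551 with no filter. *Havcr2* means were 8.82 and 11.4 FPKM in ATRXCT and 8.33 and 6.33 in ATRXKD tumors, with differences of -0.26 ± 0.25 and 0.31 ± 0.25 and overlap in both. Macrophage genes had 0 of 10 called between hosts with either shRNA. Among all genes, 0.883% and 1.12% were called higher and 0.546% and 0.266% lower. The median difference of the macrophage genes was -0.25 in ATRXCT tumors (7 of 10 negative) and 0.30 in ATRXKD tumors (7 of 10 positive). Their part in the *Cd274* and *Havcr2* values was not tested.

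**Figure D4:**
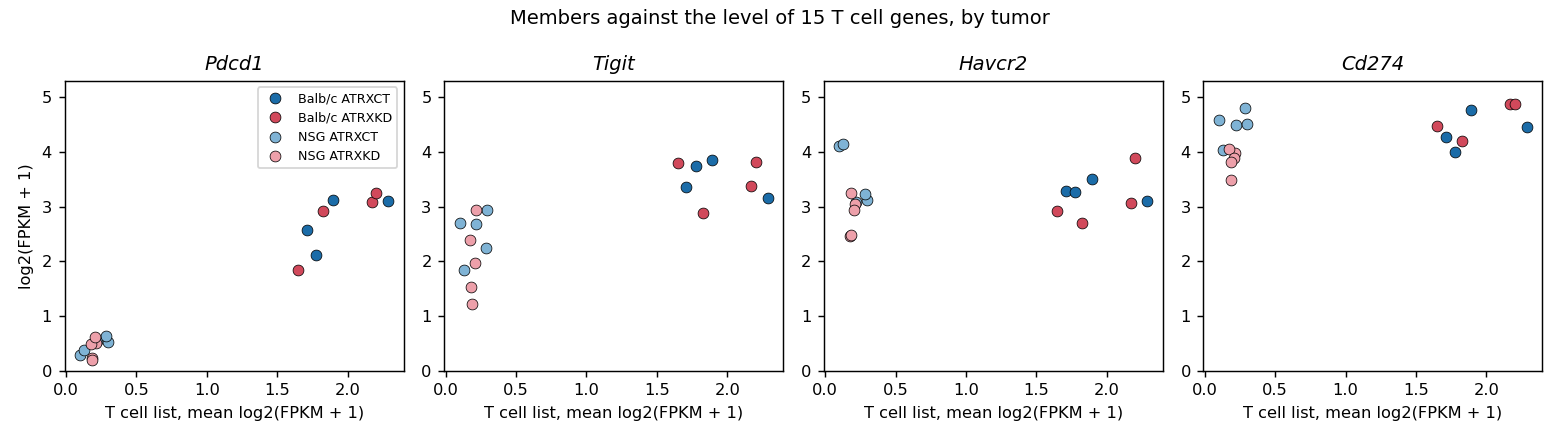
Log2 (FPKM + 1) of *Pdcd1*, *Tigit*, *Havcr2* and *Cd274* against the mean log2 (FPKM + 1) of 15 T cell genes in the 18 tumors. NSG tumors lie at a T cell mean of 0.10 to 0.30, where *Pdcd1* is at most 0.547 FPKM. *Havcr2* and *Cd274* overlap between the hosts, while *Tigit* is at 1.35 to 6.69 FPKM in NSG and 6.37 to 13.6 FPKM in Balb/c tumors.

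The T cell list was called higher in Balb/c hosts for 11 of 15 genes with ATRXCT and 13 of 15 with ATRXKD cells, and the NK cell list for 8 and 7 of 10. In the NK cell list 1 gene, *Klra8*, was called lower with each shRNA. Other checkpoint genes were called higher for 4 of 23 and 7 of 24 tested. Among all genes, 0.883% and 1.12% were called higher and 0.546% and 0.266% lower. The largest differences of the other checkpoint genes were *Klrg1*, an inhibitory receptor of NK and effector T cells (2.23 and 2.50), and *Klrc1*, which encodes NKG2A (2.17 and 2.35). *Tnfrsf18*, which encodes the costimulatory receptor GITR (2.01 and 1.99), and *Cd27* (1.08 and 1.31) came next. Among ligands and partners only *Cd96*, a receptor that shares PVR with TIGIT, was called (1.26 and 1.35), of 16 and 15 tested. *Eomes* and *Tox*, transcription factors of effector and exhausted T cells, were called higher with both shRNAs, *Eomes* by 1.40 in each and *Tox* by 1.08 and 1.04. In the interferon gamma pathway *Cxcl9* was called with both (1.92 and 2.66) and *Ifng* with ATRXKD (1.13). In ATRXKD tumors the call of *Klrg1* was lost without Balb/c 59 or any of NSG 27 to 30 (adjusted p up to 0.0595, limma). That of *Tox* was lost without any 1 tumor other than Balb/c 58 (up to 0.126). *Klrg1*, *Klrc1*, *Cd27*, *Eomes*, *Tox* and *Ifng* were at or under the limit of 3 fragments in every NSG tumor. These 6 entered the tests only through the Balb/c tumors, and their fitted differences depend on the pseudocount, so their calls describe the level in Balb/c tumors. The same holds for *Cd96*, with NSG means of 0.0851 (ATRXCT) and 0.0662 FPKM (ATRXKD), under the filter. It also holds for most T cell and NK cell genes, of which 3 of 15 and 3 of 10 reached a mean of 0.1 FPKM in NSG tumors.

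Across the 8 Balb/c tumors, the genes most like *Pdcd1* among 12170 genes that averaged 1 FPKM or more were *Cxcr6*, a chemokine receptor of tumor-infiltrating T cells (Pearson r = 0.97 of log2 (FPKM + 1)), the T cell receptor component *Cd3g* (0.95) and *Shroom3* (0.93). For *Cd274* they were *Traf3ip2* (0.94) and the interferon-inducible GTPase genes *Igtp* (0.93) and *Gbp10* (0.92), and for *Havcr2* they were *Zc3hav1* (0.95), *Eepd1* (0.95) and *Aldh1b1* (0.92). These are descriptions over 8 points that share libraries and depth. *Foxp3* was most like *Slc9a8* (0.99), *Adcy6* (0.99) and *Zc3hav1l* (0.99), and 663 genes exceeded an r of 0.9 with it, against 4 with *Pdcd1* and 16 with *Cd274*.

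Within Balb/c hosts, 4 of the 10 genes, *Pdcd1lg2*, *Foxp3*, *Tnfrsf4* and *Icos*, did not overlap between libraries of high and low slope, while none separated the shRNAs. All 4 were higher at a high slope, as were 15.7% of all genes, with 19.3% entirely lower. *Pdcd1lg2* was at 5.18 to 8.88 FPKM in the 4 libraries with a high slope (2 of each shRNA) and at 1.29 to 3.11 in the other 4, with means 3.05 times apart. *Foxp3* was at 0.468 to 1.25 and 0.113 to 0.342 FPKM, 3.54 times apart. *Tnfrsf4* was 1.35 and *Icos* 1.25 times apart, and *Lag3* overlapped slightly, 2.10 times apart. With the trend along transcript length removed from each library, the ratios of *Pdcd1lg2*, *Foxp3*, *Tnfrsf4* and *Lag3* were 2.81, 3.14, 1.76 and 2.30 without overlap, against 9.47% of all genes entirely higher and 14.2% lower. *Icos*, whose classes were only just apart as deposited (1.66 FPKM on either side), then overlapped (1.17), and *Ctla4* overlapped both ways (1.57 and 1.75). *Cd274* and *Tigit* differed little between these libraries as deposited (ratios of 1.11 and 1.02; 1.01 and 1.40 with the trend removed). Within the high-slope libraries the knock-down difference was 0.33 for *Pdcd1lg2* and -0.01 for *Foxp3*, and within the others 0.51 and 0.03. For *Pdcd1* it was 0.55 and -0.47, for *Cd274* 0.65 and -0.18, for *Lag3* 0.63 and -0.12 and for *Havcr2* 0.30 and -0.58, opposite in sign between the classes with 2 tumors of each shRNA in each. With the class as a term, 0 of 10 genes were called in Balb/c hosts. As deposited, the mean of the NK cell genes was lower in the libraries with a high slope (2.21 to 2.54, against 2.77 to 3.44). The other 7 cell type lists overlapped between the classes. These lists were not computed with the trend removed. The part of the library and of these cells in the *Foxp3* and *Pdcd1lg2* levels was not tested.

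**Figure D5:**
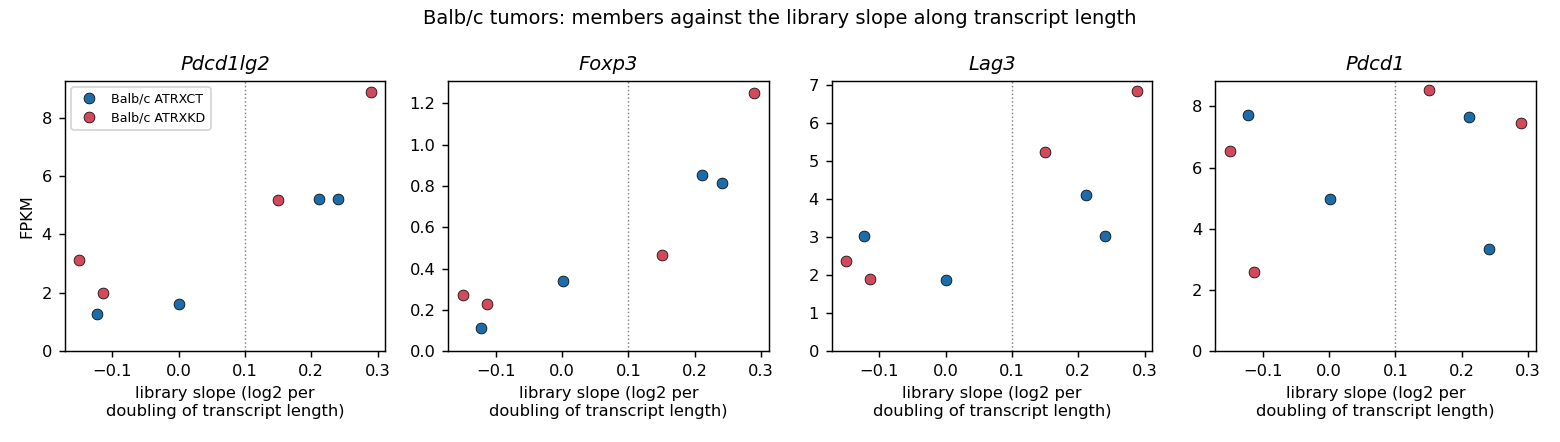
FPKM of 4 members in the 8 Balb/c tumors against the slope of each library along transcript length (log2 units per doubling); the dotted line marks the slope of 0.1 that divides the libraries. *Pdcd1lg2* and *Foxp3* are higher in all 4 libraries to its right, *Lag3* overlaps slightly and *Pdcd1* overlaps widely.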

How the data were processed

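RNA of 18 K7M2 tumors was analysed, each placed in its group and given its mouse number by its labels. Per the labels, total RNA was depleted of ribosomal RNA and libraries were stranded. Per the paper's methods, paired reads of 75 bp were aligned to mm10 with STAR 2.6.0c, filtered for quality and duplicates, and quantified over RefSeq genes with Cufflinks 2.2.1; DESeq was named for the authors' own comparisons. The authors deposited a matrix of log2 (FPKM + 1) values with 20970 entries, of which 92 are spike-ins and 20878 genes; no normalization between libraries is given in the sources used here. The base was checked from the values: with base 2, FPKM times length summed to 1.10 to 1.13 times the known total of a library, against 8.45 to 11.2 with the natural log. Fragments per library (14950000 to 25450000, median 20250000) were estimated from the steps between low values. These estimates put 34.5% to 42.1% of the low values near a whole fragment (tolerance 0.1), so reads were not recovered and no count test was run. Chance gives 20% for a depth fixed beforehand. Each depth was chosen to fit these same values, so the share is no independent check of it. Limits of 3 fragments rest on these estimates and cover counting error only.

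The 10 members and all gene lists were chosen with earlier results of these data known. Differences of log2 (FPKM + 1) were tested with limma 3.58.1 (R 4.3.3; trend in eBayes) on every gene whose mean over the tumors compared reached 0.1 FPKM, adjusted by Benjamini-Hochberg over all of them, and called at an adjusted p under 0.05 with a fold of at least 2. Each comparison of 2 groups was fitted alone, and the host difference of the knock-down effect as an interaction term over all 18 tumors. The steps were tested on simulated data. In each comparison the text names the 10 members, and for each pathway list the called genes with the largest differences or, with none called, those at the extremes; for likeness, the 3 genes with the highest r for *Pdcd1*, *Foxp3*, *Cd274* and *Havcr2*. From these, up to 4 per list were drawn, not all of which are printed. *Cd4*, *Cd3e*, *Ccr8* and *Izumo1r* were named after their values were seen. The class of libraries along transcript length was defined, and added as a term, after seeing the data. Promoter sequences come from RefSeq (GRCm38.p6), and shared stretches were searched in GENCODE transcripts. Python 3.11.15 and matplotlib 3.10.9 drew the figures.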

Additional observations from a re-analysis of the deposited data

How the results depend on the processing

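Of 939 alternative values of single members, 841 kept the reported direction and side of the adjusted p threshold. Of the rest, 39 no longer passed the threshold, 19 newly passed it and 40 turned sign. Values from the setting with no fold threshold are counted here, although they repeat the reported fit and are the same by construction. No member that was called turned sign. With library weights, differences of members near 0 turned sign: *Pdcd1* (-0.28), *Lag3* (-0.018), *Tigit* (0.025), *Foxp3* (-0.15) and *Tnfrsf4* (-0.13) in Balb/c hosts, *Pdcd1lg2* (-0.18) in NSG hosts, *Havcr2* (0.0086) between hosts in ATRXCT tumors, and *Pdcd1* (-0.20) and *Foxp3* (-0.13) in the difference between hosts. With the T cell mean as a covariate *Pdcd1* (-0.034) and *Foxp3* (-0.027) turned in Balb/c hosts, and with the length class as a term, chosen after seeing the data, *Cd274* between hosts in ATRXCT tumors (0.014).

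Counts of called genes moved by over 1.5 times as follows. In Balb/c hosts, genes lower were 0 with a filter at 1 FPKM or with no filter, 11 with library weights (4 higher), 6 in a fit of all groups (3 higher) and 2 with the covariate. In NSG hosts they were 163 lower and 63 higher with a pseudocount of 0.1, 122 and 79 with weights, and 447 and 547 with no fold threshold, which adds 1 member, *Cd274*, by its construction. Between hosts they were 153 lower and 263 higher (ATRXCT) and 78 and 346 (ATRXKD) with a pseudocount of 0.1, and 162 and 310 and 123 and 411 with no fold threshold; weights gave 71 lower in ATRXKD tumors. A filter at 1 FPKM left 3 members called in ATRXCT tumors, since *Ctla4* and *Icos* no longer entered. The interaction gave 71 lower and 124 higher genes with weights and 6 and 5 with the length class. Except where a filter or threshold removes genes, the cause was not tested.

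Leaving out 1 tumor at a time, 0 members were called in either knock-down comparison, 4 to 5 in ATRXCT and 5 to 7 in ATRXKD tumors between hosts. Called genes ranged from 0 to 2 lower and 0 to 1 higher in Balb/c hosts (0 lower without any tumor other than ATRXCT 43 or 45), 12 to 86 lower and 15 to 42 higher in NSG hosts, 50 to 120 lower between hosts in ATRXCT tumors, and 0 to 1 in each direction for the interaction. Differences ranged in Balb/c hosts from -0.17 to 0.35 for *Pdcd1*, -0.18 to 0.11 for *Foxp3* (also for the interaction), -0.19 to 0.13 for *Tigit*, -0.069 to 0.12 for *Tnfrsf4*, -0.10 to 0.053 for *Icos* and -0.39 to 0.0051 for *Havcr2*; *Lag3* (0.0010 to 0.48), *Pdcd1lg2* (0.12 to 0.69), *Cd274* (0.11 to 0.37) and *Ctla4* (0.18 to 0.46) stayed positive. They ranged in NSG hosts from -0.070 to 0.13 for *Pdcd1lg2* and -0.093 to 0.035 for *Lag3*, between hosts in ATRXCT tumors from -0.24 to 0.015 for *Cd274*, and for the interaction from -0.10 to 0.42 for *Pdcd1*. The T cell mean differed by -0.036 to 0.168. With 4 or 5 tumors in a group and *Foxp3* at 1.25 FPKM or less, small differences were not detectable at this depth. No paired analysis was possible because the groups share no tumor numbers.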

Other observations

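Over the 10 NSG tumors, *Tigit* was most like *Cd40*, a costimulatory receptor of B cells, macrophages and dendritic cells (Pearson r = 0.96 of log2 (FPKM + 1)), then *Slc7a6os* (0.94) and *Ube2a* (0.94); this comparison was chosen after the values were seen, and 39 of 12048 genes exceeded an r of 0.9. *Cd40* was at 10.3, 9.12, 6.26, 10.5 and 8.22 FPKM in NSG ATRXCT and 9.05, 3.65, 7.70, 6.96 and 5.26 in NSG ATRXKD tumors, with its lowest value in tumor ATRXKD 27, where *Tigit* was also lowest (1.35 FPKM). *Klra8*, a receptor gene of the Ly49 family, was at 5.03 to 25.8 FPKM in NSG tumors and at most 0.108 FPKM in Balb/c tumors, opposite to the other NK cell genes called. Over the 8 Balb/c tumors, *Pdcd1lg2* was most like *Tnpo3* (0.98), *4930523C07Rik* (0.98) and *Ciita*, the transactivator of MHC class II genes (0.98), with 272 genes above an r of 0.9. No tumor stood apart from its group in log2 (FPKM + 1) of the 10 genes or the T cell mean by Dixon's test at 95% in the 42 groups of 4 or 5 tumors that could be tested.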
